A study of Homo sapiens with 5 samples.

Results

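The genes described here encode the subunits of the proteasome, with its activators, its inhibitor and its assembly factors, in the human promyelocytic leukaemia cell line HL60. They are the entries of the deposited count table that map in GENCODE release 29 to protein-coding genes whose symbol begins with PSM, one letter from A to G and a digit, leaving out PSMB8 and PSMB9. The table holds 46 such genes among 51055 gene IDs. One further symbol that the pattern matches, PSMB3, was not analysed here. One of the 46, PSMC3IP, encodes a meiotic recombination factor and no part of the proteasome, and it is kept apart, which leaves 45 proteasome genes. PSMA8, a testis-specific alpha subunit, and PSMB11, a thymus-specific beta subunit, had 0 counts in every library, which allows up to 0.0980 to 0.125 CPM in a library, the level of 3 counts. The other 43 passed the filter on low counts and were tested.

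The proteasome degrades proteins that carry ubiquitin chains. Its core particle is a barrel of stacked alpha and beta rings, with the cutting sites on the inner face of some beta subunits. A regulatory particle made of a base, which holds the ATPase ring that unfolds substrates, and a lid, which removes ubiquitin, binds to the ends of the barrel. Other activators, among them the complex of PSME1 and PSME2 that interferon induces in many cell types, can take its place. When proteasome activity is limiting, the transcription factor NFE2L1 raises the genes of core, base and lid together in mammalian cells.

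ZIP cells (2 libraries) carried a lentivector for a hairpin that gives an antisense RNA to the microRNA miR-378a-3p. SCR cells (2 libraries) carried the control lentivector, which the labels call scramble in one place and empty in another. Transduction used polybrene at 8 µg/mL and a multiplicity of infection of 20. Puromycin at 2 µg/mL was present between day 3 and day 8, so both groups are selected pools and both vectors carry GFP. UNT cells (1 library) were not transduced. Per the labels, total RNA went into a TruSeq Small RNA kit, which is made for short RNAs, while the counts cover full-length gene models. The microRNA is printed here from RefSeq (GRCh38.p14, chr5:149732867-149732888, plus strand) because it is the target of the ZIP hairpin. Capitals mark its seed, bases 2 to 8.
hsa-miR-378a-3p: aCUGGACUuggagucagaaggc

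Library totals were 30925067 and 24406580 counts in ZIP, 24539092 and 24978022 in SCR and 25064771 in UNT. The promyelocytic markers MPO, ELANE, PRTN3, CTSG, AZU1 and CD33 summed to 22667 and 22014 CPM in ZIP, 11660 and 11666 CPM in SCR and 24435 CPM in UNT. MPO made up most of each sum, with 17062 and 16596 CPM in ZIP, 9974 and 9999 CPM in SCR and 19034 CPM in UNT. CD33 alone of the 6 was not called in ZIP against SCR. The 5 monocyte and macrophage markers summed to 11.5 and 11.9 CPM in ZIP, 118 and 120.3 CPM in SCR and 3.88 CPM in UNT. The B cell list summed to 1.44 and 1.53 CPM in ZIP, 2.60 and 2.49 CPM in SCR and 4.38 CPM in UNT, nearly all of it CD79A, with MS4A1 at 0 in every library. The erythroid list reached 0.118 CPM at most, with HBB at 0. The T and NK cell list summed to between 12.1 and 22.3 CPM and was nearly all NKG7, and the epithelial and fibroblast list to 1.75 CPM at most. By these sums the SCR libraries stood apart in maturation markers, and the monocyte and macrophage sum of ZIP also lay above that of UNT. The part of these differences in the proteasome values was not tested. In bulk RNA, fewer cells of a type and less RNA per cell cannot be told apart.

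Proteasome genes as a set were higher in ZIP than in SCR, lower in SCR than in UNT, and at about the same level in ZIP and UNT. The 45 genes summed to 6266 and 6218 CPM in the ZIP libraries, 5315 and 5271 CPM in the SCR libraries and 6087 CPM in the UNT library. CPM here is the count scaled to a common library size with TMM factors. The 2 ZIP sums lay above the 2 SCR sums, and UNT lay between, nearer to ZIP. The ratio of means was 1.18 for ZIP over SCR, 0.870 for SCR over UNT and 1.03 for ZIP over UNT. With 2 libraries against 2, the smallest exact permutation p is 0.333, so the sums are given as values without a test.

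The shift was small for each gene and shared by most of them. In ZIP against SCR, 32 of the 43 genes tested were higher, 3 were lower and 8 were not called, with a median log2 fold change of 0.23 (edgeR quasi-likelihood test, Benjamini-Hochberg adjusted p under 0.05). Over all 14643 genes tested, 65.4% were called, 32.2% higher and 33.2% lower, with a median of -0.00. Among the 8804 genes of at least 10 CPM, a level that 42 of the 43 reach and that was chosen after their values were seen, 43% were higher and 33.6% lower. No proteasome gene differed 2-fold, against 14.1% of all genes and 502 of the 8804 genes of at least 10 CPM. In SCR against UNT, 4 were higher, 31 lower and 8 not called, with a median of -0.26, where 64.9% of all 15832 genes tested were called, 32.7% higher and 32.2% lower. Among genes of at least 10 CPM those shares were 35.6% and 44%. Scaled by library totals, which moves the median of all genes there by 0.11, the counts were 9 higher and 25 lower. With TMM factors only PSMA2 and PSMG3 differed 2-fold there, against 20.4% of all genes and 887 of the 8804 of at least 10 CPM. In ZIP against UNT, 13 were higher, 18 lower and 12 not called, with a median of -0.01, against 58.2% of all genes called, 28.5% higher and 29.7% lower. Among genes of at least 10 CPM the shares were 36% and 38.3%. Library totals gave 14 higher and 13 lower. None of the 43 differed 2-fold between ZIP and UNT, against 13.9% of all genes and 479 of the 8804 of at least 10 CPM. Each group enters 2 of these 3 comparisons, so the comparisons are not independent of each other.

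**Figure D1:**
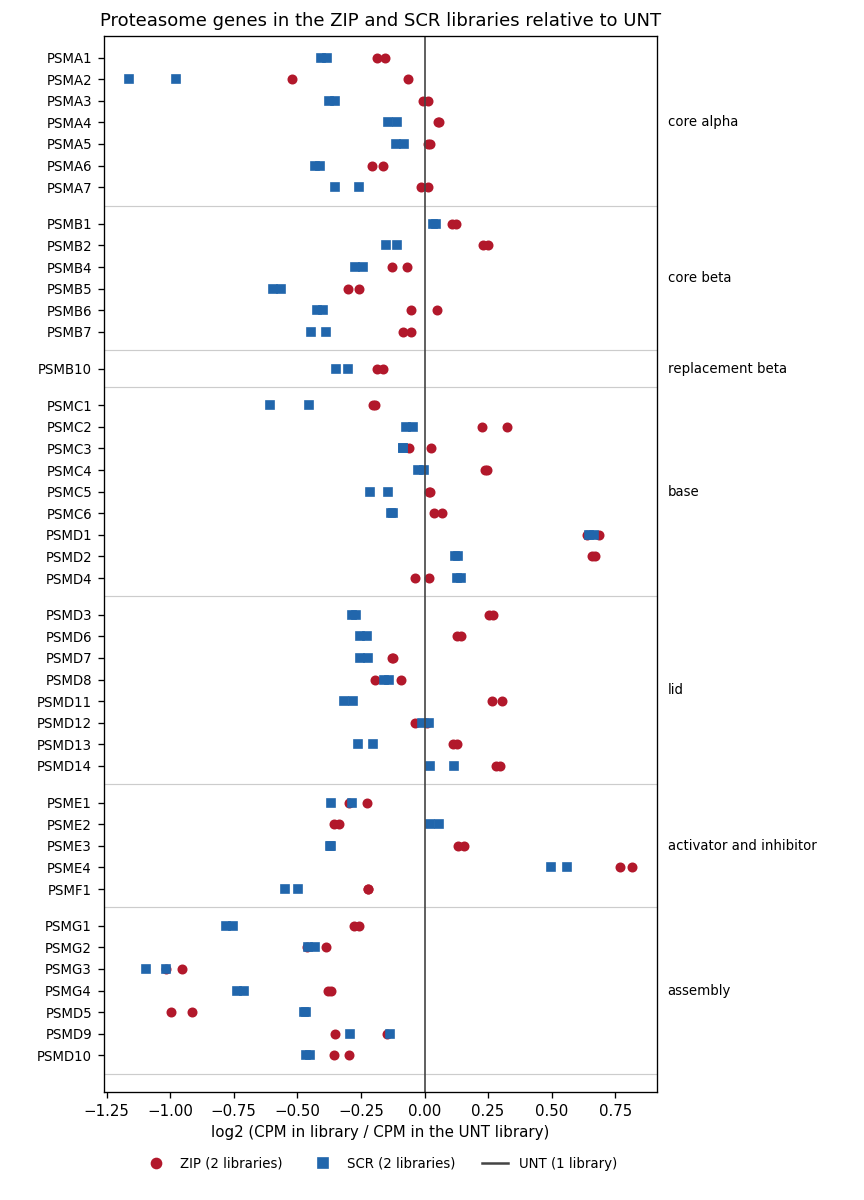
Log2 ratio of the CPM in each ZIP library (red circles, 2) and each SCR library (blue squares, 2) to the CPM in the UNT library (vertical line at 0), for the 43 proteasome genes tested, grouped by class. Most SCR squares lie left of the ZIP circles, and the core genes lie at or left of 0 in SCR except PSMB1. PSMB1, PSMD1, PSMD2, PSMD14 and PSME4 lie right of 0 in all 4 transduced libraries.

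Taking the 44 tested genes of the symbol pattern one by one, both ZIP libraries lay above both SCR libraries for 33, below for 4 and overlapped for 7. Over all 15832 genes the ZIP libraries lay above in 6133 and below in 6340. The UNT value was nearer to the ZIP mean than to the SCR mean for 31 of the 44 (70.5%), and for 58.5% of all genes. UNT lay above all 4 transduced libraries for 19 of them (43.2%) and below all 4 for 5 (11.4%), against 33.4% and 32.6% of all genes.

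The alpha ring, which forms the outer gate of the core, was higher in ZIP than in SCR in all 7 genes tested and lower in SCR than in UNT in the same 7. PSMA3 had 191 and 194 CPM in ZIP, 148 and 150.2 CPM in SCR and 192 CPM in UNT. Both ZIP values lay at the level of UNT and above both SCR values. ZIP exceeded SCR by a log2 fold change of 0.37 ± 0.03 (SE), and SCR against UNT gave -0.36 ± 0.04 (edgeR quasi-likelihood adjusted p = 4e-10 and 4.3e-09). PSMA6 had 201 and 195 CPM in ZIP, 167 and 169 CPM in SCR and 225 CPM in UNT, so that UNT was the highest of the 5. Its log2 fold change was 0.24 in ZIP against SCR, -0.42 in SCR against UNT and -0.18 in ZIP against UNT. The other genes of the ring called in ZIP against SCR ranged from a log2 fold change of 0.12 for PSMA5 to 0.31 for PSMA7, apart from PSMA2. Of the 7, PSMA1 and PSMA6 were called lower in ZIP than in UNT and 5 were not called. Without SCR replicate 1 the call of PSMA5 in SCR against UNT was lost (edgeR adjusted p = 0.11), and also with library totals (0.76).

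PSMA2 showed the widest log2 fold change of the ring and the least certain one. It had 49 and 53 counts in ZIP, 26 and 30 in SCR and 55 in UNT, that is 1.60 and 2.19 CPM in ZIP, 1.03 and 1.17 CPM in SCR and 2.30 CPM in UNT. The log2 fold change, ZIP against SCR, was 0.77 ± 0.25, and it was -1.06 ± 0.29 in SCR against UNT (edgeR quasi-likelihood adjusted p = 0.010 and 0.0026). The first call was lost without SCR replicate 1 (adjusted p = 0.060), without ZIP replicate 2 (0.11) and in DESeq2 (0.096), which also lost the second (0.080). All 702 coding bases of PSMA2 are shared on the same strand with an annotated readthrough gene, AC010132.3, which itself had between 0 and 3 counts. PSMA2 stood far below the other 6 alpha genes, its level is uncertain, and the part of the shared bases in it was not tested. Bases shared with other annotated genes made up 88.6% of the coding bases of PSMA1, 70.4% of PSMA6, 68.3% of PSMD9 and 60% of PSMB10, in each case on the same strand.

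The beta ring carries the cutting sites. PSMB6, the caspase-like subunit, had 60.0 and 55.9 CPM in ZIP, 44.0 and 43.3 CPM in SCR and 58.0 CPM in UNT. PSMB7, the trypsin-like subunit, had 227 and 222 CPM in ZIP, 173 and 180.0 CPM in SCR and 236 CPM in UNT. PSMB5, the chymotrypsin-like subunit that bortezomib binds, had 79.5 and 81.9 CPM in ZIP, 66.1 and 64.8 CPM in SCR and 97.9 CPM in UNT. In all 3 catalytic genes the ZIP libraries lay above the SCR libraries, but only PSMB5 stayed clearly under UNT. The log2 fold changes in ZIP against SCR were 0.41 ± 0.05 for PSMB6, 0.35 ± 0.03 for PSMB7 and 0.30 ± 0.04 for PSMB5. In ZIP against UNT they were 0.00, -0.07 and -0.28, and only that of PSMB5 was called (edgeR quasi-likelihood adjusted p = 0.97, 0.10 and 2.9e-06).

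The structural beta genes were less uniform. PSMB2 had 287 and 284 CPM in ZIP, 218 and 224 CPM in SCR and 242 CPM in UNT, so ZIP exceeded UNT as well (log2 fold change 0.24). PSMB1 had 269 and 266 CPM in ZIP, 255 and 253 CPM in SCR and 247 CPM in UNT, the single core gene with UNT as its lowest library. Its log2 fold change of 0.08 in ZIP against SCR had an edgeR quasi-likelihood adjusted p of 0.016, and the call was lost without SCR replicate 2 (0.079), without ZIP replicate 1 (0.089) and with scaling by library totals (0.58). PSMB4 had a log2 fold change of 0.16 in ZIP against SCR, -0.26 in SCR against UNT and -0.10 in ZIP against UNT, the last lost without ZIP replicate 2 (adjusted p = 0.20). Over the alpha and beta rings together, 13 of 13 genes tested were higher in ZIP than in SCR, and 12 of 13 were lower in SCR than in UNT. Those shares were 43% and 44% among genes of at least 10 CPM. Scaled by library totals, PSMA4, PSMA5 and PSMB2 lost the call in SCR against UNT (edgeR adjusted p = 0.67, 0.76 and 0.63). PSMB1 was then called higher in SCR than in UNT (0.00041). Between ZIP and UNT, 2 of the 13 were higher, 4 lower and 7 not called.

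**Figure D2:**
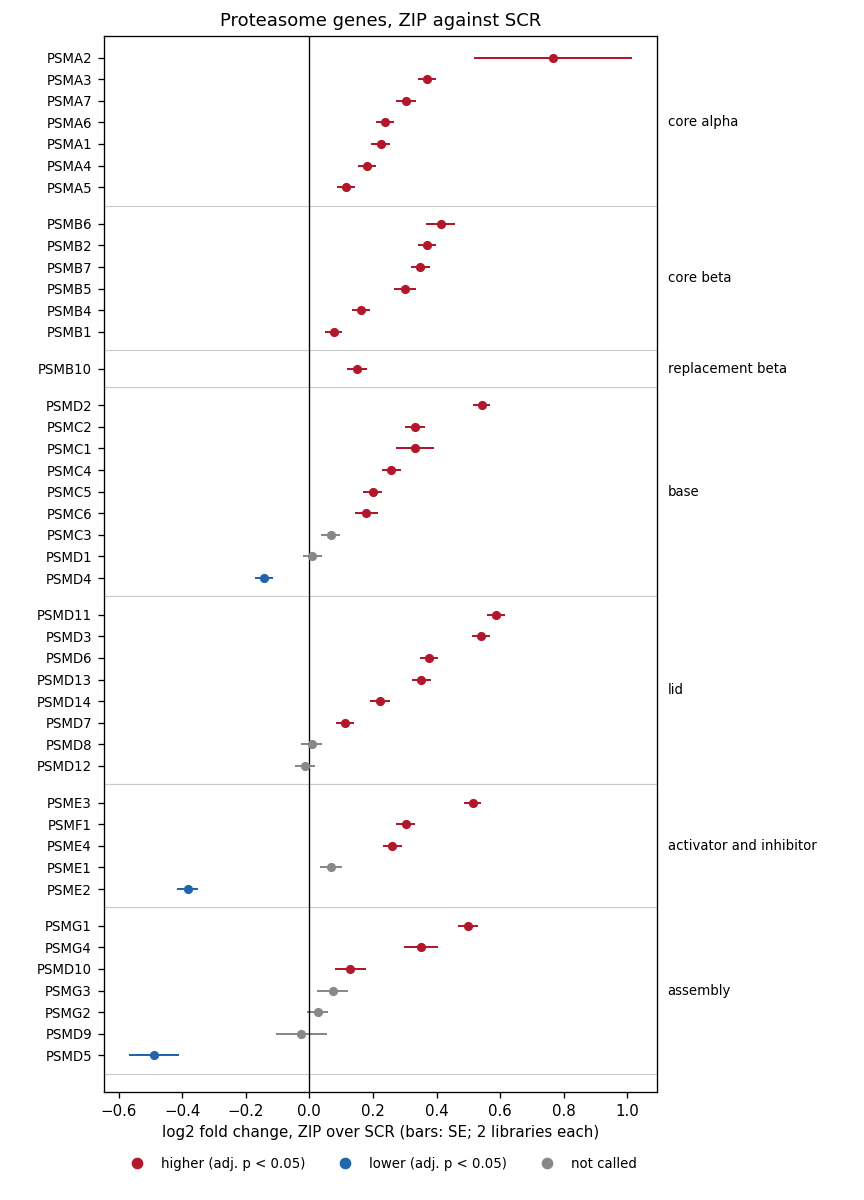
Log2 fold change of ZIP over SCR for each of the 43 proteasome genes tested (points) with its standard error (bars), 2 libraries in each group, coloured by the edgeR quasi-likelihood call and ordered within each class. All core points lie right of 0, while PSMD4, PSME2 and PSMD5 are the 3 called lower in ZIP.

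The base joins the ATPase ring to the core. In ZIP against SCR, 6 of its 9 genes were higher, 1 was lower and 2 were not called, and in SCR against UNT 3 were higher, 3 lower and 3 not called. Among genes of at least 10 CPM, 43% were higher and 33.6% lower in ZIP against SCR. In SCR against UNT those shares were 35.6% and 44%. Base was the class in which SCR did not sum below UNT: it summed to 1215 and 1224 CPM in ZIP, 1060.5 and 1052 CPM in SCR and 1026 CPM in UNT. PSMD2 (chr3:184298709-184309054, plus strand, GRCh38), a scaffold subunit where ubiquitin receptors dock, had 273 and 270.3 CPM in ZIP, 186 and 187 CPM in SCR and 171 CPM in UNT. Its ZIP values stood far above both other groups, with log2 fold changes of 0.54 ± 0.03 in ZIP against SCR and 0.67 ± 0.03 in ZIP against UNT (edgeR quasi-likelihood adjusted p = 6.3e-13 and 1.7e-13). PSMD1, the other large scaffold subunit, had 148 and 143 CPM in ZIP, 144 and 146 CPM in SCR and 91.7 CPM in UNT. ZIP and SCR overlapped, and both lay above UNT by a log2 fold change of 0.66 ± 0.04. The 2 scaffold genes thus shared the difference from UNT in ZIP, and PSMD2 alone of them was called between ZIP and SCR.

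The 6 ATPase genes showed a graded pattern. PSMC2 had 145 and 155 CPM in ZIP, 121 and 118 CPM in SCR and 124 CPM in UNT, with a log2 fold change of 0.33 ± 0.03 in ZIP against SCR. PSMC1 had 30.4 and 30.5 CPM in ZIP, 25.5 and 23.0 CPM in SCR and 34.9 CPM in UNT, with a log2 fold change of 0.33 ± 0.06 in ZIP against SCR and -0.53 ± 0.07 in SCR against UNT. PSMC1 is uncertain, since NRDE2 overlaps 75.8% of its exon bases on the other strand, and whether strand was used in counting is unknown here. PSMC4, PSMC5 and PSMC6 had log2 fold changes of 0.26, 0.20 and 0.18 in ZIP against SCR. PSMC3 had 152 and 161 CPM in ZIP, 149 and 149 CPM in SCR and 158 CPM in UNT, and was not called in any comparison (edgeR quasi-likelihood adjusted p = 0.064 in ZIP against SCR), though it was called there without ZIP replicate 1 (0.014). The call of PSMC6 as lower in SCR than in UNT was lost without either SCR replicate (adjusted p = 0.077 and 0.073). PSMC2 and PSMC4 were higher in ZIP than in UNT (log2 fold change 0.27 and 0.24), PSMC1 was lower (-0.20, a call lost without ZIP replicate 1, adjusted p = 0.073), and PSMC3, PSMC5 and PSMC6 were not called.

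PSMD4, a receptor for ubiquitin chains, went against the rest of the base. It had 128 and 124 CPM in ZIP, 138 and 139.8 CPM in SCR and 127 CPM in UNT. Both SCR libraries lay above the other 3. ZIP against SCR gave a log2 fold change of -0.14 ± 0.03, and SCR against UNT gave 0.13 ± 0.04 (edgeR quasi-likelihood adjusted p = 0.00025 and 0.0034), and DESeq2 did not call the second (0.052).

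The lid, which strips ubiquitin from substrates, was higher in ZIP than in SCR in 6 of its 8 genes, with none lower. Among genes of at least 10 CPM, 43% were higher and 33.6% lower there, and 35.6% and 44% in SCR against UNT. PSMD11 (chr17:32444261-32483318, plus strand), which clamps the lid to the core, had 151 and 147 CPM in ZIP, 101 and 98.2 CPM in SCR and 122 CPM in UNT. PSMD3, a structural lid subunit, had 276 and 273 CPM in ZIP, 189.8 and 188 CPM in SCR and 229 CPM in UNT. In both genes UNT lay between the groups, with the ZIP libraries highest. Their log2 fold changes in ZIP against SCR were 0.59 ± 0.03 and 0.54 ± 0.03, among the widest of the 43 genes beside PSMA2 and PSMD2 (edgeR quasi-likelihood adjusted p = 4.8e-13 and 6.8e-13). In ZIP against UNT they were 0.29 and 0.26. PSMD14, the deubiquitinase of the lid, had 180.5 and 182 CPM in ZIP, 161 and 151 CPM in SCR and 148 CPM in UNT, with a log2 fold change of 0.22 ± 0.03 in ZIP against SCR and 0.29 ± 0.04 in ZIP against UNT.

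The other lid genes spread from clear differences to none. PSMD6 and PSMD13 had log2 fold changes of 0.38 and 0.35 in ZIP against SCR, and PSMD7, which pairs with PSMD14, had 0.11. PSMD8 had 196 and 183 CPM in ZIP, 190.0 and 188 CPM in SCR and 209 CPM in UNT, and its groups of transduced libraries overlapped. PSMD12 had 96.4 and 93.3 CPM in ZIP, 96.8 and 95.1 CPM in SCR and 95.7 CPM in UNT, a range narrower than that of any other lid gene. With TMM factors it was not called in any comparison. With library totals it was called higher in SCR than in UNT (log2 fold change 0.11) and lower in ZIP than in SCR (-0.07). In SCR against UNT that scaling also called PSMD14 higher (0.18), and PSMD8 lost its call (-0.04). PSMD7 and PSMD8 were lower in ZIP than in UNT (log2 fold change -0.13 and -0.14), while PSMD3, PSMD6, PSMD11, PSMD13 and PSMD14 were higher. In SCR against UNT 6 lid genes were lower and 2 were not called, of which PSMD14 was called higher without SCR replicate 2 (edgeR adjusted p = 0.015). Of these ZIP against UNT calls, those of PSMD6, PSMD7 and PSMD13 were not made by DESeq2 (adjusted p = 0.051, 0.063 and 0.063), and that of PSMD8 was lost without ZIP replicate 2 (edgeR adjusted p = 0.083).

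Promoter sequence was examined because most core, base and lid genes were higher in ZIP than in SCR. The RefSeq promoters (GRCh38.p14, 250 bases before to 50 after the start) held 49 entries for 40 of the 46 genes, with no entry for PSMA7, PSMB1, PSMB6, PSMB7, PSMD4 and PSMG3. The motif TGACNNNGC, the core of the element bound by NFE2L1 and NFE2L2 with small MAF proteins, was searched on both strands and lay in 13 of the 49 promoters (26.5%), against 13.3% of all 35116 promoters. CTTCCGG, an ETS family motif, lay in 17 (34.7%, against 10.3%), and CCAAT, the NF-Y motif, in 20 (40.8%, against 34.6%). No match of one motif shared a base with a match of another in these 49. Those with TGACNNNGC were PSMA4 of the core, PSMC4, PSMC5 and PSMD1 of the base, and PSMD3 and PSMD12 of the lid. The others were the activators PSME1, PSME2 and PSME4 and the assembly genes PSMD5, PSMD9, PSMG1 and PSMG2. The median log2 fold change in ZIP against SCR was 0.07 for these 13 genes. It was 0.30 for the 25 tested genes whose promoter entries lack the motif, PSMC3IP among them. The 2 sets differ in class, and the part of class in these medians was not tested. With CTTCCGG the medians were 0.24 for 15 genes, PSMC3IP among them, and 0.20 for 23. A match is letters only, and binding was not measured. The 3 promoters here hold TGACNNNGC, in capitals, and belong to a lid gene that was much higher in ZIP, an ATPase gene that was moderately higher and a lid gene that was not called.
PSMD3 promoter, chr17:39980557-39980856, plus strand: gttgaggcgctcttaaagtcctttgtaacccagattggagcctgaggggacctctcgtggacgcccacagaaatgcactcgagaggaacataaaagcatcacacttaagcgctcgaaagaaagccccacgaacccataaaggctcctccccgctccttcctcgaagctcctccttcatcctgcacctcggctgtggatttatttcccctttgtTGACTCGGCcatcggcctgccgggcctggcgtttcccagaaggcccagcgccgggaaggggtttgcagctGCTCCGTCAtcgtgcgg
PSMC4 promoter, chr19:39970915-39971214, plus strand: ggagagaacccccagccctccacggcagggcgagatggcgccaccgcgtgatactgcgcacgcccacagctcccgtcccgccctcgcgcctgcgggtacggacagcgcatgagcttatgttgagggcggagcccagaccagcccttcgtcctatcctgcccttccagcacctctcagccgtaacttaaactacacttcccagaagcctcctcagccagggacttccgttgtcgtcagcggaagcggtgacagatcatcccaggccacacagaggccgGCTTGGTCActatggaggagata
PSMD12 promoter, chr17:67366528-67366827, minus strand: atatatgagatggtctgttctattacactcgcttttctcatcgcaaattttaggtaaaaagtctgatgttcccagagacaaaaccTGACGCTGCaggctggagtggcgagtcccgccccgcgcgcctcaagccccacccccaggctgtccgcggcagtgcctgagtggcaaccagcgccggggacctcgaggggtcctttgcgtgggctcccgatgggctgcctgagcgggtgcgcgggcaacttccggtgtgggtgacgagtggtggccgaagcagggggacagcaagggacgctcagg

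PSMD3 holds 2 matches, 37 bases before and at base 34 after the start, PSMC4 holds 1 at base 28 after the start, and PSMD12 holds 1 that begins 165 bases before it.

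Of the 5 activator and inhibitor genes, 3 were higher in ZIP than in SCR, 1 lower and 1 not called. Among genes of at least 10 CPM, 43% were higher and 33.6% lower. PSME3, the nuclear activator that acts without ubiquitin, had 275 and 279 CPM in ZIP, 194 and 194 CPM in SCR and 251 CPM in UNT. Its ZIP libraries were highest and its SCR libraries lowest, with a log2 fold change of 0.51 ± 0.03 in ZIP against SCR and -0.37 ± 0.03 in SCR against UNT (edgeR quasi-likelihood adjusted p = 1.3e-12 and 1.4e-09). PSME4 (chr2:53864067-53970840, minus strand), a large monomeric activator, had 168 and 173 CPM in ZIP, 139 and 145 CPM in SCR and 98.3 CPM in UNT. The 3 groups did not overlap, and UNT was lowest. Its log2 fold change in ZIP against UNT, 0.79 ± 0.04, was the widest positive one among the 43 genes (adjusted p = 1.2e-13). PSMF1, an inhibitor of the core, had 134 and 133 CPM in ZIP, 110.3 and 106 CPM in SCR and 156 CPM in UNT, with a log2 fold change of 0.30 ± 0.03 in ZIP against SCR and -0.52 ± 0.04 in SCR against UNT.

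PSME1 and PSME2 encode the 2 subunits of one interferon-inducible activator ring and lie 4394 bases apart on chromosome 14 (GRCh38), and they differed in which comparisons called them. PSME2 had 71.7 and 70.7 CPM in ZIP, 91.8 and 94.0 CPM in SCR and 90.5 CPM in UNT. The ZIP libraries stood below the other 3, with a log2 fold change of -0.38 ± 0.03 in ZIP against SCR and -0.34 ± 0.04 in ZIP against UNT (edgeR quasi-likelihood adjusted p = 2.7e-09 and 1.7e-07). PSME1 had 118 and 112 CPM in ZIP, 113 and 107 CPM in SCR and 138 CPM in UNT. Here ZIP and SCR overlapped and UNT was highest, with a log2 fold change of 0.07 ± 0.03 in ZIP against SCR (adjusted p = 0.080) and -0.26 ± 0.04 in ZIP against UNT. PSME1 was called higher in ZIP without SCR replicate 1 (adjusted p = 0.016) and without ZIP replicate 2 (0.013). Scaled by library totals, PSME2 was called higher in SCR than in UNT (log2 fold change 0.15). The difference between the 2 genes was not tested. PSMB10, the inducible beta subunit that replaces PSMB7, had 104 and 103 CPM in ZIP, 95.0 and 91.9 CPM in SCR and 117 CPM in UNT. It followed the constitutive core, with a log2 fold change of 0.15 ± 0.03 in ZIP against SCR and -0.33 ± 0.04 in SCR against UNT.

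Interferon response genes differed between the same groups. Of 9 such genes, 9 were lower in ZIP than in SCR, and 8 were higher in SCR than in UNT with IRF1 not called. Their summed level was 58.3 and 59.1 CPM in ZIP, 268 and 262 CPM in SCR and 68.0 CPM in UNT. MX1, an antiviral GTPase, had 1.14 and 1.53 CPM in ZIP, 33.5 and 33.1 CPM in SCR and 0.668 CPM in UNT. IRF1, an interferon regulatory factor, had 30.2 and 29.5 CPM in ZIP, 43.9 and 42.2 CPM in SCR and 44.9 CPM in UNT. It is the exception of the list, since the other 8 genes were called higher in SCR than in UNT. PSMB10 and PSME1 were lower in SCR than in UNT. The part of interferon signalling in PSMB10, PSME1 and PSME2 was not tested.

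**Figure D3:**
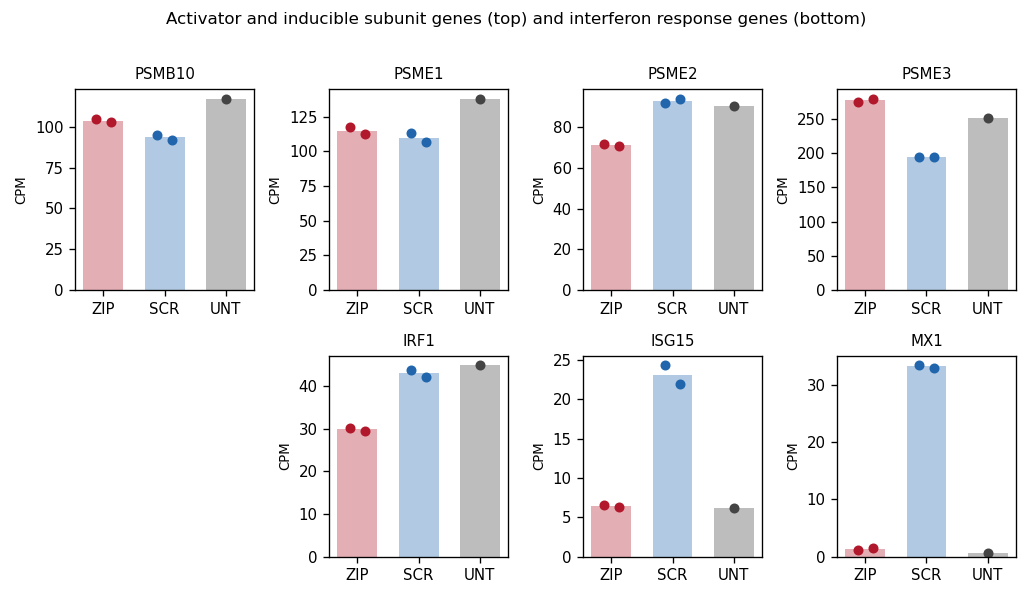
CPM of PSMB10, PSME1, PSME2 and PSME3 (top) and of the interferon response genes IRF1, ISG15 and MX1 (bottom) in ZIP (2 libraries), SCR (2) and UNT (1), with points for libraries and bars for group means. PSME2 and IRF1 are lowest in ZIP and near equal in SCR and UNT with TMM scaling. MX1 and ISG15 are high in SCR only among these libraries. IRF1 is the only gene of the interferon list not called in SCR against UNT.

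The interferon-stimulated response element was searched as GAAANNGAAA on both strands. It lay in 6 of the 49 promoters (12.2%), against 3.57% of all promoters, and the 6 genes were PSMA4, PSMB4, PSMB10, PSME1, PSME2 and PSMG4. The promoters of the 3 inducible genes are printed with the match in capitals, since all 3 hold it while their values differ.
PSME1 promoter, chr14:24135944-24136243, plus strand: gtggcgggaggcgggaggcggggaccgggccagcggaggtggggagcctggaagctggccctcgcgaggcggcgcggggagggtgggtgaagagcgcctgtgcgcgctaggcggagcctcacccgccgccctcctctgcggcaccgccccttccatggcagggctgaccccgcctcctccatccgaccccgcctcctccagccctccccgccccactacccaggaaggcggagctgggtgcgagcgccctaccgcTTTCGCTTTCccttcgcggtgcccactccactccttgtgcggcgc
PSME2 promoter, chr14:24146561-24146860, minus strand: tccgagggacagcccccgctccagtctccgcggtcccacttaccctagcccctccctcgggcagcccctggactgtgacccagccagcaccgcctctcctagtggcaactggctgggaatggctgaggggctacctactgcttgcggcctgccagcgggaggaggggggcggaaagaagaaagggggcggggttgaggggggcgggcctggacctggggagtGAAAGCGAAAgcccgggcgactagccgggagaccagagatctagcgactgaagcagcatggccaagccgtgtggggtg
PSMB10 promoter, chr16:67936801-67937100, minus strand: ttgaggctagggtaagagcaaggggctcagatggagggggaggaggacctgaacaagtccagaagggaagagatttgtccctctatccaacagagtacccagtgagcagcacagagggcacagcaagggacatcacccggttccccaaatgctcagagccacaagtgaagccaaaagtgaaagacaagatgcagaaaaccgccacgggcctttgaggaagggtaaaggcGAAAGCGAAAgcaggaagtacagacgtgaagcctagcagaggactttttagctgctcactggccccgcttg

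The match begins at base 6 after the start in PSME1, 28 bases before it in PSME2 and 21 bases before it in PSMB10. In PSME1 it is read on the opposite strand. The median log2 fold change of the 6 genes in ZIP against SCR was 0.16. That of the 32 tested genes whose entries lack the letters, PSMC3IP among them, was 0.25.

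The assembly factors were the class that stayed lowest against UNT. They summed to 376 and 369 CPM in ZIP, 333 and 326 CPM in SCR and 513 CPM in UNT, a ratio of 0.726 for ZIP over UNT and 0.642 for SCR over UNT. All 7 were lower in ZIP than in UNT, with a median log2 fold change of -0.37, and 6 were lower in SCR than in UNT. Among genes of at least 10 CPM, 38.3% were lower in ZIP than in UNT and 44% in SCR than in UNT. PSMG3 (chr7:1567330-1571005, minus strand, GRCh38), part of a dimer that helps build the alpha ring, had 47.9 and 45.8 CPM in ZIP, 45.9 and 43.5 CPM in SCR and 92.8 CPM in UNT. ZIP and SCR overlapped at about the same level, with log2 fold changes of -1.05 ± 0.05 in SCR against UNT and -0.98 ± 0.05 in ZIP against UNT (edgeR quasi-likelihood adjusted p = 1.1e-14 and 5.7e-14). Its partner PSMG4 had 34.4 and 34.1 CPM in ZIP, 26.6 and 27.2 CPM in SCR and 44.4 CPM in UNT. PSMG1, part of the other chaperone dimer of the alpha ring, had 113 and 114 CPM in ZIP, 81.1 and 79.7 CPM in SCR and 137 CPM in UNT. In each pair 1 partner was called in ZIP against SCR and the other was not, and the difference itself was not tested. The log2 fold change of ZIP over SCR was 0.50 ± 0.03 for PSMG1 and 0.03 ± 0.03 for PSMG2, and 0.35 ± 0.05 for PSMG4 and 0.07 ± 0.05 for PSMG3.

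PSMD5, PSMD9 and PSMD10 help build the base and are not part of the finished particle. PSMD5 had 11.0 and 11.6 CPM in ZIP, 15.9 and 15.8 CPM in SCR and 21.9 CPM in UNT. The 3 groups did not overlap, with ZIP lowest and UNT highest, and with a log2 fold change of -0.49 ± 0.08 in ZIP against SCR and -0.96 ± 0.09 in ZIP against UNT (edgeR quasi-likelihood adjusted p = 1.6e-05 and 3.9e-09). PSMD10, also known as gankyrin, had 39.4 and 41.0 CPM in ZIP, 36.5 and 36.9 CPM in SCR and 50.4 CPM in UNT. Its call in ZIP against SCR (log2 fold change 0.13, adjusted p = 0.027) was lost without either SCR replicate (0.098 and 0.070), without ZIP replicate 2 (0.10) and in DESeq2 (0.16). PSMD9 had 18.0 and 15.6 CPM in ZIP, 18.1 and 16.3 CPM in SCR and 19.9 CPM in UNT. It was called in ZIP against UNT alone (log2 fold change -0.24, adjusted p = 0.039), a call lost without ZIP replicate 2 (0.22) and in DESeq2 (0.26). Without SCR replicate 1 it was also called lower in SCR than in UNT (edgeR adjusted p = 0.017).

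**Figure D4:**
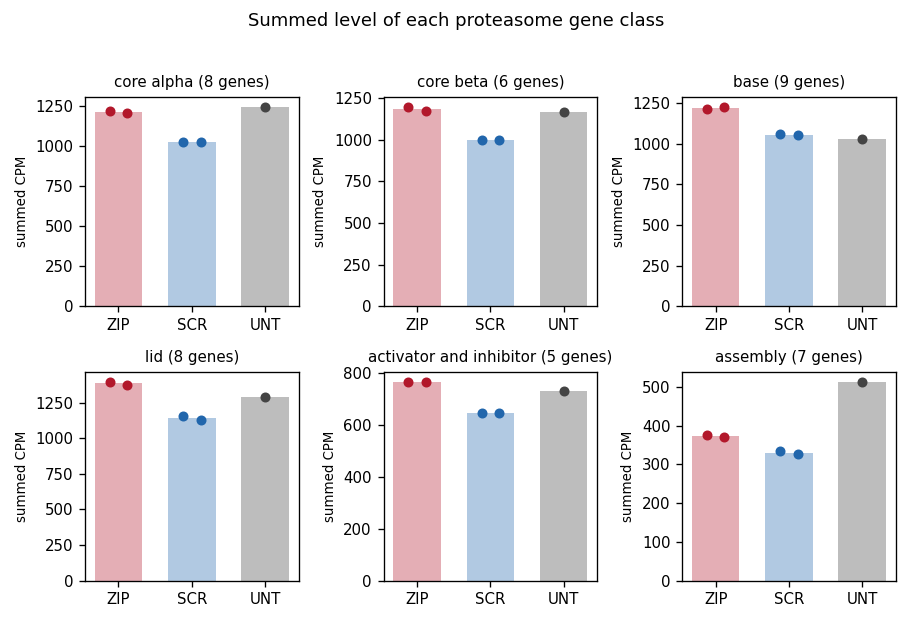
Summed CPM of each proteasome class in ZIP (2 libraries), SCR (2) and UNT (1), with points for libraries and bars for group means. ZIP lies above SCR in all 6 classes drawn, and UNT lies near ZIP in the core rings, near SCR in the base, and far above both in the assembly factors.

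By class, the ratio of mean summed CPM in ZIP over SCR was 1.18 for the alpha ring, 1.18 for the beta ring, 1.15 for the base, 1.21 for the lid, 1.18 for activators and inhibitor, and 1.13 for assembly factors. The ratio for SCR over UNT ranged more widely, with 0.827 for the alpha ring, 0.857 for the beta ring, 1.03 for the base, 0.884 for the lid and 0.883 for activators and inhibitor. Within each class the 2 libraries of a group differed by less than the distance between ZIP and SCR.

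Levels were also compared per length, as CPM per kb of annotated exons averaged over the 5 libraries. PSMA7 was highest with 142 CPM per kb, followed by PSMB4 with 119, PSMB7 with 116 and PSMB1 with 114. PSMB4, PSMB7 and PSMB1 were close in this order, and their ranges over the libraries overlapped. At the other end were PSMA2 with 0.310 CPM per kb, PSMD9 with 2.00, PSMG4 with 3.20 and PSMD5 with 3.44. In the base, PSMC3 had 67.6 CPM per kb, against 8.72 for PSMC6 and 4.68 for PSMC1. The choice of length moved this order. Per kb of the longest transcript it ran PSMA7 with 243 CPM per kb, PSMB7 with 212, PSMA3 with 137, PSMB1 with 133 and PSMB4 with 125. PSMC6 then had 22.2 CPM per kb. The median over tested genes was 34.7 CPM per kb by all annotated exons and 59.4 by the longest transcript.

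**Figure D5:**
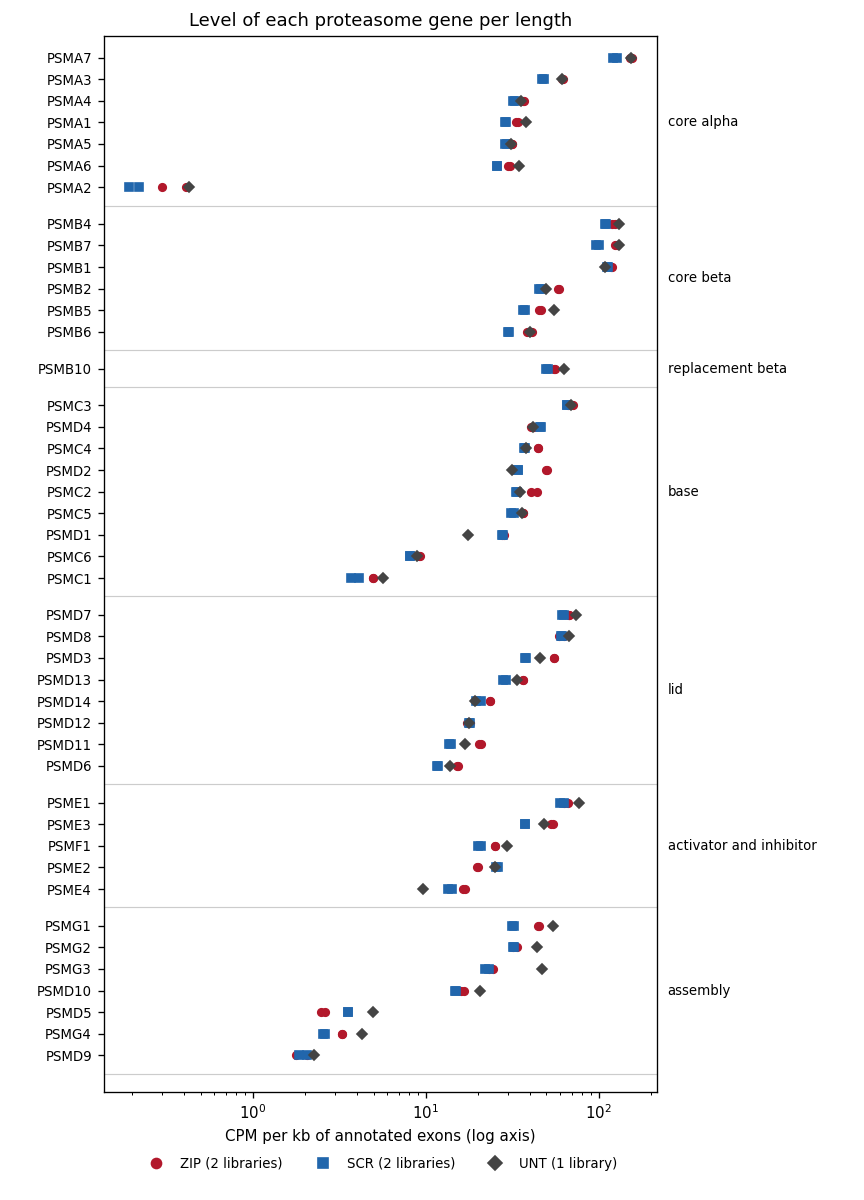
CPM per kb of annotated exons (log axis) for the 43 proteasome genes tested in each ZIP (red circles), SCR (blue squares) and UNT (dark diamonds) library, ordered within each class. The spread between genes is far wider than the spread between libraries, and PSMA2 lies far left of the other alpha genes.

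The other known subunits and proteasome-bound factors carry symbols outside the pattern. Of 8 such genes, 6 were higher in ZIP than in SCR, 1 was lower and 1 was not called. In SCR against UNT 2 were higher, 5 lower and 1 not called. Among genes of at least 10 CPM, 43% were higher and 33.6% lower in ZIP against SCR, and 35.6% and 44% in SCR against UNT. ADRM1, a ubiquitin receptor of the base, had 178 and 169 CPM in ZIP, 99.6 and 107 CPM in SCR and 175 CPM in UNT, with a log2 fold change of 0.75 ± 0.04 in ZIP against SCR. ZIP and UNT lay close together and SCR was lowest, whereas SCR was highest for PSMD4, also a ubiquitin receptor. ECPAS, a scaffold that binds the proteasome, had 287 and 288 CPM in ZIP, 199.5 and 201 CPM in SCR and 176 CPM in UNT, the same order as PSMD2. AKIRIN2, which brings proteasomes into the nucleus, went the other way with 29.8 and 29.7 CPM in ZIP, 46.4 and 48.8 CPM in SCR and 35.4 CPM in UNT. TXNL1, a thioredoxin-like protein bound to the regulatory particle, had a log2 fold change of 0.41 in ZIP against SCR and -0.44 in SCR against UNT.

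Genes of ubiquitin delivery and removal were called in both directions, as were all genes tested, of which 32.2% were higher and 33.2% lower in ZIP than in SCR. Among genes of at least 10 CPM those shares were 43% and 33.6%. Of 12 deubiquitinases, ligases and shuttles, 5 were higher in ZIP than in SCR, 3 lower and 4 not called. USP14, a proteasome-bound deubiquitinase, had 298 and 309.8 CPM in ZIP, 219.9 and 219 CPM in SCR and 244 CPM in UNT. SQSTM1, a ubiquitin receptor of autophagy, had 107 and 109.7 CPM in ZIP, 153 and 157 CPM in SCR and 82.7 CPM in UNT. The first was highest in ZIP and the second highest in SCR. Of 5 genes for ubiquitin and its activating enzymes, 2 were higher in ZIP than in SCR, 2 lower and 1 not called. UBA1, the main ubiquitin-activating enzyme, had 390 and 379 CPM in ZIP, 322 and 323 CPM in SCR and 325 CPM in UNT. Of 8 genes for the segregase VCP and its cofactors, 5 were higher in ZIP than in SCR, 2 lower and 1 not called. VCP had 438 and 434 CPM in ZIP, 308 and 302 CPM in SCR and 309 CPM in UNT, while its cofactor FAF2 had a log2 fold change of -0.70 in ZIP against SCR.

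NFE2L1 itself was not called between ZIP and SCR. It had 211 and 207 CPM in ZIP, 205 and 209 CPM in SCR and 151 CPM in UNT, so ZIP and SCR overlapped and both lay above UNT. The log2 fold change, ZIP against SCR, was 0.02 ± 0.03 (edgeR quasi-likelihood adjusted p = 0.64) and 0.45 ± 0.04 in SCR against UNT. NFE2L1 acts after release and cleavage of its protein, which RNA does not measure. NGLY1, the enzyme that trims sugars from it, had 126 and 122 CPM in ZIP, 83.9 and 87.3 CPM in SCR and 138 CPM in UNT. The related factor NFE2L2 had 42.2 and 40.9 CPM in ZIP, 86.8 and 87.0 CPM in SCR and 105 CPM in UNT, with ZIP lowest. Among the small MAF partners, MAFK had log2 fold changes of 0.76 in ZIP against SCR and -1.98 in SCR against UNT, and MAFF had -2.23 and 4.13. MAFF reached 10.3 CPM at most. MAFG had log2 fold changes of -0.11 and 0.53, with 133 and 136 CPM in ZIP, 145 and 145 CPM in SCR and 101 CPM in UNT. The list of 11 genes holds NFE2L1, NFE2L2, the small MAF genes, BACH1 and genes for the processing of NFE2L1. Of these, 7 were higher in ZIP than in SCR, 3 lower and 1 not called. Over all genes tested, 32.2% were higher and 33.2% lower, and among genes of at least 10 CPM 43% and 33.6%. VCP and DDI2 are in this list and were also counted in the lists above.

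Because the ZIP hairpin targets miR-378a-3p, the letters AGTCCAG, which pair with bases 2 to 8 of the microRNA, were looked for in the annotated 3′ ends. They lay in 4 of the 44 tested genes (9.09%), against 14.5% of the 12110 protein-coding genes tested. All 4 were called higher in ZIP than in SCR, with log2 fold changes of 0.23 for PSMA1, 0.12 for PSMA5, 0.33 for PSMC2 and 0.59 for PSMD11. So were 32 of the 43 proteasome genes tested, and 43% of all genes of at least 10 CPM. PSMA5 holds 2 such sites and the other 3 hold 1 each. The first site of each gene is printed because these are the members with letters that could pair with the seed, with the paired letters in capitals. Most of the 32 genes called higher hold no such letters, and whether the microRNA acts at these 4 was not tested.
PSMA1 site: ttttaggaatcAGTCCAGatgtgagtttt
PSMA5 site: ataaatgaactAGTCCAGctcttcccagt
PSMC2 site: ctaatttagaaAGTCCAGaattggcttca
PSMD11 site: gcttccaagcaAGTCCAGacagctctgtg

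PSMC3IP, which matches the pattern by name only, had 6.01 and 4.34 CPM in ZIP, 8.44 and 8.52 CPM in SCR and 7.72 CPM in UNT. Both ZIP libraries lay below the other 3, with a log2 fold change of -0.69 ± 0.13 in ZIP against SCR (edgeR quasi-likelihood adjusted p = 1e-04). It moved against most of the proteasome genes. Proteasome pseudogenes took few counts: the 28 that the table lists summed to 45 and 35 counts in ZIP, 29 and 37 in SCR and 38 in UNT.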

How the data were processed

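RNA of 5 HL60 libraries (2 ZIP, 2 SCR, 1 UNT) was analysed from the authors' deposited table of raw counts per Ensembl gene ID. Bowtie2 and featureCounts are named in the submitters' processing notes, whereas the series' design text names CASAVA 1.8.2, TopHat 2, Cufflinks and HTSeq. Neither the tool that made the counts nor the strand setting could be settled from them, so overlapping genes are uncertain. IDs were matched to GENCODE release 29, which gave 44305 of 51055 a symbol.

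Counts were filtered with filterByExpr (minimum count 10, total 15), scaled by TMM (factors 0.990 and 0.991 in ZIP, 1.03 and 1.03 in SCR, 0.956 in UNT) and tested with the edgeR 4.0.16 quasi-likelihood test (R 4.3.3, limma 3.58.1) with Benjamini-Hochberg adjustment over all genes at 0.05. ZIP against SCR used 4 libraries. The comparisons with UNT used all 5, with the spread of ZIP and SCR standing in for that of the single UNT library. Residual degrees of freedom were 2 in each fit. SE is the absolute log2 fold change divided by the square root of F. The biological coefficient of variation was 0.0245. Replicate libraries differed by a mean chi-square per gene of 1.88 (ZIP) and 2.65 (SCR), against 88.1 to 151 across groups. The sources do not say that replicates were separate cultures, so the p-values reflect only the spread among these samples, possibly technical. Intervals and limits from counts cover counting error only. The fit was tested on simulated counts. Alternatives were other scalings, DESeq2 1.42.0, no filter, protein-coding genes only and leaving out each replicate.

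The members, classes and gene lists were chosen with earlier results of these data known. Some genes of the lists are not reported here, and counts and sums leave them out. Values per library were given in full for the 2 widest log2 fold changes of each class and comparison, for members that went against most of their class, and for others where they helped to show the range. Related genes were named mostly by smallest p, except USP14, VCP, NFE2L1 and MAFG, which were chosen after their values were seen. IRF1 was not named by smallest p either. Promoter and microRNA sequences are from RefSeq tables for GRCh38.p14, and 3′ end sites from the GENCODE transcripts.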

Additional observations from a re-analysis of the deposited data

How the results depend on the processing

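Over 1276 values of single genes under the alternatives, 1181 kept their direction and their side of the threshold, 42 lost a call and 20 gained one in the same direction, and 33 changed sign, of which 1 also lost a call and 1 gained one. Scaling by library totals raised the SCR against UNT count of proteasome genes higher to 9, and shifted the median of all genes there by 0.11 on the log2 scale, while the members' median less that of all genes stayed at -0.274. The log2 ratio of the summed level, 0.238 in ZIP against SCR, -0.202 in SCR against UNT and 0.0364 in ZIP against UNT, became 0.179, -0.0919 and 0.0875 with library totals. Scaling by library totals gave 14 higher and 13 lower in ZIP against UNT, in place of 13 and 18. DESeq2 called 3023 genes lower in ZIP against UNT, in place of 4705. The median level per length was 59.44 CPM per kb by longest transcript. The cause of these shifts was not tested.

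Values that changed sign were as follows. With library totals they were 0.013 for PSMA5, 0.052 for PSMC2, 0.025 for PSMC3 and 0.095 for PSMC4 in SCR against UNT, where PSMA5 lost its call (edgeR adjusted p = 0.021 became 0.76) and PSMC4 was called higher (0.75 became 0.040). They were -0.050 for PSMD1, -0.052 for PSMD8 and -0.034 for PSMG2 in ZIP against SCR, and 0.050 for PSMA7, 0.032 for PSMC3, 0.039 for PSMD12 and 0.042 for PSMD4 in ZIP against UNT. With protein-coding genes only they were -0.018 for PSMD12 in SCR against UNT, and -0.0054 for PSMA3 and -0.0067 for PSMB6 in ZIP against UNT. PSMA7 in ZIP against UNT was 0.0073 with RLE scaling and 0.0073 in DESeq2.

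With 1 replicate left out in turn, log2 fold changes that crossed 0 ran as follows. In SCR against UNT they ran from -0.025 to 0.0050 for PSMC4 and -0.0086 to 0.025 for PSMD12. In ZIP against SCR they ran from -0.017 to 0.041 for PSMD1, -0.041 to 0.017 for PSMD12, -0.048 to 0.066 for PSMD8, -0.14 to 0.074 for PSMD9 and -0.017 to 0.070 for PSMG2. In ZIP against UNT they ran from -0.014 to 0.022 for PSMA7, -0.053 to 0.058 for PSMB6, -0.051 to 0.025 for PSMC3, -0.036 to 0.019 for PSMD12 and -0.037 to 0.026 for PSMD4. The counts of proteasome genes called were then 30 to 32 higher and 3 lower in ZIP against SCR, 4 to 5 higher and 30 to 33 lower in SCR against UNT and 13 higher and 15 to 18 lower in ZIP against UNT.

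Replicate numbers are shared between ZIP and SCR, but deviations of same-numbered libraries correlated by only 0.036 over genes, so the numbers were not taken as pairs. With the replicate block, 33 proteasome genes were higher and 3 lower in ZIP against SCR (4790 and 4919 of all genes), and PSMC3 was called (edgeR adjusted p = 0.038). PSMA2, with 26 to 55 counts, is the one member whose depth limits its values.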

Other observations

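Antisense and neighbouring non-coding genes of the family were measured too and enter no comparison above. PSMD6-AS2, which shares bases with PSMD6 on the other strand, had 2.45 and 2.81 CPM in ZIP, 1.42 and 1.05 CPM in SCR and 0.292 CPM in UNT, so UNT lay below all 4 transduced libraries, while PSMD6 itself did not have UNT lowest. PSMB8-AS1 had 8.69 and 9.10 CPM in ZIP, 17.5 and 16.4 CPM in SCR and 13.4 CPM in UNT, with UNT between the groups. PSMG3-AS1 had 2.39 and 2.69 CPM in ZIP, 2.56 and 3.39 CPM in SCR and 1.67 CPM in UNT, the reverse of the UNT order of PSMG3. PSMD6-AS2 shares 352 bases with PSMD6 (3.86% of its exon bases) and PSMG3-AS1 shares 60 with PSMG3 (3.06%). Without a stated strand setting, reads on these shared bases cannot be told apart.

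Among the genes of the annotation that share bases with members on the other strand, SPIRE1, which overlaps PSMG2, had 58 and 70 counts in ZIP, 145 and 148 in SCR and 4 in UNT. PSMG2 had UNT as its highest library. The 46 genes lie scattered over the genome, with 8 on chromosome 14 and 7 on chromosome 17.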
